A study of Oreochromis niloticus with 6 samples.

Results

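Aquaporins are membrane channel proteins, and the gene table lists 18 genes whose product name begins with aquaporin, of 29528 genes in all. They were measured in the liver of male Oreochromis niloticus, the Nile tilapia, a freshwater fish that is widely farmed. In the knockdown group antisense RNA was directed at elovl6, the gene of an elongase of palmitic acid, and the fish of the other group were negative controls, labelled wild type. All fish ate pellets with 5% palm oil. There were 3 knockdown and 3 control libraries of poly(A) RNA. Per the labels' protocols, 9 fish per group were sampled and RNA from the 3 replicate tanks of a group was mixed in equal parts, so a library is a pool. The labels do not say whether the libraries of a group held different fish, and p-values therefore measure only the spread between these libraries, which may be technical.

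Each aquaporin subunit forms its own pore through the membrane. Most members let water through and little else. A second branch, the aquaglyceroporins numbered 3, 7, 9 and 10, also lets glycerol and other small uncharged solutes through. Glycerol is the backbone that is left when a triglyceride has lost its fatty acids, and in mammals aquaporin-7 lets it out of fat cells while aquaporin-9 takes it up into the liver for glucose production. By these numbers, 6 of the 18 genes were counted as glycerol-conducting and 12 as water-only. The second class is named by number alone and includes the aquaporins 8, 11 and 12, of which 8 and 11 are known in mammals to pass other solutes too. The file's own annotation gave glycerol transport to 4 of the 6 genes of the first class (aquaporin-7, aquaporin-9 and both copies of aquaporin-10, but neither copy of aquaporin-3) and to 0 of the 12 of the second. No sequence of these genes was at hand, and none is shown.

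The libraries held 14341242 to 17245179 counted reads. The targeted gene elovl6 was at 37.6 ± 1.48 FPKM in knockdown livers, against 162 ± 1.53 FPKM in controls (SD, n = 3 each; log2 fold change -2.12, SE 0.05, edgeR adjusted p = 1.58e-22). FPKM is a read count scaled for gene length and library total, a level that can be compared between genes. Genes with a mean of at least 1 FPKM over the 6 libraries were tested, 11431 in number, and 78.2% of them differed between the groups at an edgeR adjusted p under 0.05, with 39.1% higher and 39.1% lower in the knockdown. A call for a single gene therefore says little by itself, and the sizes of the changes are given with each. All 23 hepatocyte markers passed the filter.

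Of the 18 aquaporin genes, 6 passed the filter, 6 were read below it and 6 had no read in any library. Of the 6 that passed, 1 rose and 5 fell in the knockdown, beside 39.1% higher and 39.1% lower among all genes tested. Of the 5, 3 had a log2 fold change under -2, as had 6.85% of all genes tested, and 2 of these were under -3, as were 2.41% of all genes. All 6 had no overlap between the libraries of the groups, which was also so for 79.5% of all genes tested. The glycerol-conducting members that passed, aqp7 and aqp10a, went in opposite directions. The 4 water-only members that passed were lower, the least of them 1.85-fold. These counts depend on the filter: LOC100708036 passed it through the control libraries alone, and the water-only copy LOC100692125, which was higher in the knockdown, missed it at a mean of 0.972 FPKM.

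**Figure D1:**
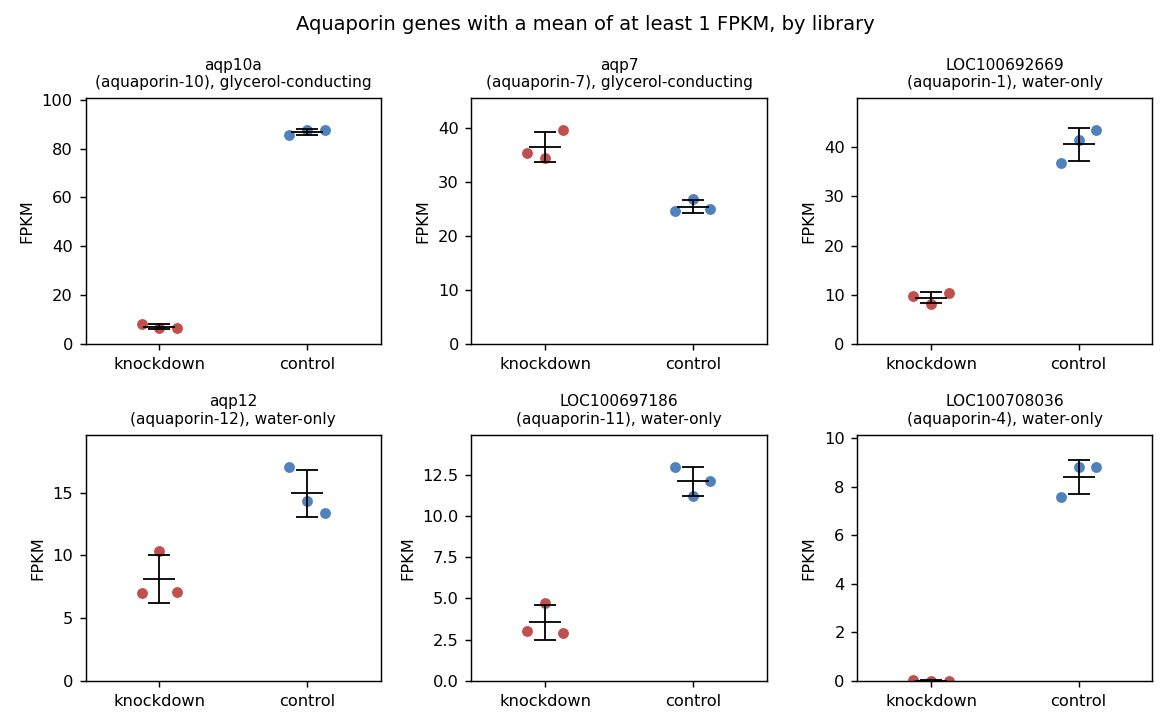
FPKM of the 6 aquaporin genes with a mean of at least 1 FPKM, with 1 panel per gene and linear axes from 0. Points are libraries, and the black marks are the mean and SD of the 3 knockdown and the 3 control libraries; the knockdown points lie below all control points in every panel except that of aqp7, where they lie above them.

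Aqp10a (LOC100702556 in the file, aquaporin-10, linkage group LG11 from 20724511 to 20729170, minus strand) was the most abundant aquaporin of the control livers. In humans aquaporin-10 is a glycerol channel of the small intestine. The gene was at 8.44, 6.47 and 6.80 FPKM in knockdown libraries 1, 2 and 3, against 85.5, 87.5 and 87.6 FPKM in control libraries 1, 2 and 3. The highest knockdown library lay far below the lowest control library, from 664 reads in the knockdown and 8961 in the control group. The gene fell 12.1-fold (log2 fold change -3.59, SE 0.08, edgeR adjusted p = 5.37e-23), and 4.13% of all genes tested had a larger change in either direction. The other copy, aqp10b (aqp10 in the file), had 0 reads in all 6 libraries.

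Aqp7 (LOC100702341, aquaporin-7, LG5 from 28266759 to 28273121, minus strand) was the single aquaporin past the filter that rose. It was at 35.3, 34.4 and 39.6 FPKM in knockdown libraries 1, 2 and 3, and at 24.6, 26.8 and 24.9 FPKM in control libraries 1, 2 and 3. The lowest knockdown library lay above the highest control library. The rise was 1.43-fold (log2 fold change 0.51, SE 0.07, edgeR adjusted p = 2.02e-07), and 67.5% of the genes tested had a larger change. Over 1054 bases aqp7 overlaps tpgs2, a gene on the opposite strand that was higher in the knockdown too (12.4 ± 0.41 FPKM in knockdown and 9.84 ± 0.788 FPKM in control livers, log2 fold change 0.33). The strand setting of the counting is not given, and reads of the shared bases cannot be told apart between the genes.

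The glycerol channels aqp7 and aqp10a stood in opposite order in the knockdown and control livers. The highest knockdown level of aqp10a, 8.44 FPKM, lay below the lowest control level of aqp7, 24.6 FPKM. The fall of aqp10a was thus enough to reverse the order without the rise of aqp7. The level of aqp7 was 4.18, 5.32 and 5.83 times that of aqp10a in knockdown libraries 1, 2 and 3, and 0.288, 0.306 and 0.285 times it in control libraries 1, 2 and 3. The pair was picked for this after its values were seen, and the ratio is given as a description.

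The other glycerol channels were nearly silent. Aqp9b (aqp9 in the file, LG1), whose mammalian relative is the glycerol entry route of the liver, had 3, 9 and 4 reads in knockdown libraries 1, 2 and 3, against 11, 10 and 2 reads in control libraries 1, 2 and 3. Its mean was 0.0837 FPKM in knockdown livers and 0.109 FPKM in control livers. The groups overlapped, and the ratio of reads per library total was 0.782 (95% exact binomial interval 0.386 to 1.55, which covers counting error only). A second aquaporin-9 gene, LOC100693959, falls outside the 18 because its product name opens with a remark on low sequence quality, and it had 0 reads in knockdown libraries and 2 in controls. For aquaporin-3, a channel of skin and kidney in mammals, the copy LOC100703924 had 4 reads, all in knockdown library 2, and aqp3a (LOC100708473) had 0 in all libraries. In these livers the glycerol-conducting class thus amounted to aqp7 and aqp10a.

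Among the water-only members, LOC100692669 (aquaporin-1, LG18 from 19561465 to 19563791, plus strand) was the most abundant. In mammals aquaporin-1 is the water channel of red blood cells and of capillary endothelium. The gene was at 9.77, 8.17 and 10.3 FPKM in knockdown libraries 1, 2 and 3, against 36.8, 41.3 and 43.4 FPKM in control libraries 1, 2 and 3. The groups did not overlap, and the 3 knockdown libraries lay close to each other. It fell 4.31-fold (log2 fold change -2.11, SE 0.11, edgeR adjusted p = 2.77e-15).

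Markers of red blood cells and of endothelium moved as well, in opposite directions. Of 22 tested erythrocyte markers 21 were lower and 1 higher, beside 39.1% lower and 39.1% higher among all genes tested. Their median log2 fold change was -1.86. The summed level of the list was 2670 to 2902 FPKM in knockdown libraries, against 17325 to 17926 FPKM in control libraries. The red cell anion exchanger slc4a1a (log2 fold change -2.12, SE 0.09) and the haem synthesis gene alas2 (-2.28, SE 0.07) were among the lower ones. Of 19 tested endothelial markers 18 were higher and 0 lower, beside the same shares of all genes. Among the higher ones was the junction gene cdh5 (log2 fold change 1.53, SE 0.10). The summed levels of the list were 153 to 163 FPKM in knockdown and 59.4 to 62.3 FPKM in control libraries. In these bulk samples fewer cells of a type and less RNA per cell cannot be told apart, and the part of either cell type in the aquaporin-1 result was not tested.

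LOC100692669 is the first of 3 aquaporin-1 genes that lie side by side within 19561465 to 19572911 on LG18. The middle gene, LOC100692397, starts 5349 bases further on and had 1 read in all, in knockdown library 3. The last, LOC100692125, starts 96 bases after it and went the other way from the first. It had 29, 15 and 32 reads in knockdown libraries 1, 2 and 3, against 3, 5 and 2 in control libraries 1, 2 and 3, or 1.74 ± 0.599 FPKM in knockdown livers, against 0.208 ± 0.108 FPKM in control livers. All knockdown libraries lay above all control libraries. The ratio of reads per library total was 8.54 (95% exact binomial interval 4.40 to 18.5, which covers counting error only).

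This copy missed the filter, with a mean under 1 FPKM. In a fit without a filter, in which 52.4% of 22678 genes differed between the groups, 26.5% higher and 25.9% lower in the knockdown, its log2 fold change was 2.93 (SE 0.69, edgeR adjusted p = 7.07e-05). The change of the first copy relative to the last was compared within libraries. The log2 ratio of their levels, with 0.1 FPKM added, was 2.43 ± 0.363 in knockdown libraries and 7.10 ± 0.529 in control libraries (SD, n = 3 each), a difference of -4.67 with p = 0.1 in a 2-sided exact permutation test, the smallest p that 3 against 3 libraries allow (0.2 after adjustment over the 2 pairs of copies compared). Counting could have split reads between neighbouring copies. The summed reads of all 4 aquaporin-1 genes, which include the unread LOC109201761 on LG4, were lower in the knockdown too (591 reads, against 2490 in the controls; log2 ratio of reads per library total -1.91, not tested).

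LOC100708036 (aquaporin-4 in the file, LG18 from 17140589 to 17144543, minus strand) had the largest ratio of reads between the groups among the 6 genes that passed the filter. Aquaporin-4 is the main water channel of the brain in mammals. The gene had 1, 0 and 0 reads in knockdown libraries 1, 2 and 3, against 256, 276 and 310 reads in control libraries 1, 2 and 3, where it stood at 8.40 ± 0.714 FPKM. It was close to unread in the knockdown and steady in the controls. The ratio of reads per library total was 749 in favour of the controls (edgeR adjusted p = 2.39e-16). Its 95% exact binomial interval, which covers counting error only, was 134 to 29617. The fitted log2 fold change depends on how the near absence of reads is handled and ran from -11.07 to -3.21 over the settings tried, so it places the gene under -3 and gives no finer size. The other aquaporin-4 copy, LOC100698963 on LG15, had 0 reads throughout.

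**Figure D2:**
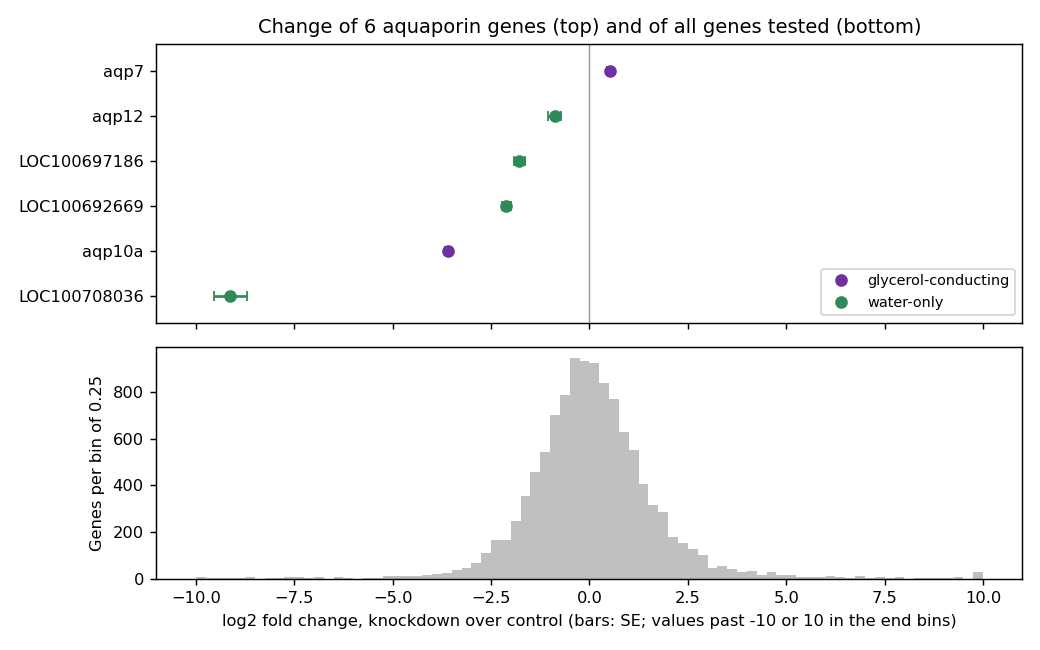
Top, fitted log2 fold change (knockdown over control) of the 6 tested aquaporin genes with its SE, coloured by class; bottom, the number of all 11431 genes tested per bin of 0.25 on the same axis. Aqp7 is the single gene right of 0, aqp12 lies inside the bulk of all genes, and LOC100708036 lies far left at a fitted value that rests on 1 read in the knockdown.

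Both members of the deep-branching subfamily of aquaporins 11 and 12 that passed the filter were lower as well. LOC100697186 (aquaporin-11, LG10 from 26382615 to 26386070, plus strand) encodes a relative of a channel of the endoplasmic reticulum in mammals. It was at 3.01, 4.74 and 2.89 FPKM in knockdown libraries 1, 2 and 3, against 13.0, 11.2 and 12.1 FPKM in control libraries 1, 2 and 3. All knockdown libraries lay below all control libraries, with knockdown library 2 above the other 2 of its group. The gene fell 3.44-fold (log2 fold change -1.78, SE 0.15, edgeR adjusted p = 4.34e-11). The second aquaporin-11 gene, aqp11 on LG14, had 6 reads in knockdown libraries and 23 in controls, which overlapped in FPKM. The change of LOC100697186 relative to aqp11 within libraries differed between the groups by -0.80 on the log2 scale (p = 0.3, 2-sided exact permutation test, 0.3 after adjustment over the 2 pairs). That difference was -0.42 without knockdown library 1, -0.52 without control library 2 and -1.34 with 1 FPKM added in place of 0.1.

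Aqp12 (LOC100707964, aquaporin-12, LG23 from 38153848 to 38155179, minus strand) has a mammalian relative that is made in the acinar cells of the pancreas, and in tilapia exocrine pancreas lies within the liver. The gene was at 7.03, 10.3 and 7.06 FPKM in knockdown libraries 1, 2 and 3, against 17.1, 14.4 and 13.4 FPKM in control libraries 1, 2 and 3. It fell 1.85-fold (log2 fold change -0.89, SE 0.17, edgeR adjusted p = 4.24e-05), the smallest fall of the 5. All control libraries lay above all knockdown libraries, though knockdown library 2 came within a few FPKM of control library 3.

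Exocrine pancreas markers were lower as well. Of 32 tested exocrine pancreas markers 27 were lower and 5 higher, beside 39.1% lower and 39.1% higher among all genes tested. Their median log2 fold change was -6.88. The trypsin gene prss1 had a log2 fold change of -7.73 and the carboxypeptidase B gene cpb1 one of -6.56. The marker list also holds carboxypeptidase B2 (cpb2), which the liver makes itself, and both ppdpf genes, which are not digestive enzymes. Without these 3 genes, 29 markers were tested, of which 27 were lower and 2 higher. Their summed level was 273 to 449 FPKM in knockdown and 48189 to 48910 FPKM in control libraries. The elastase gene LOC100698021 and the phospholipase gene pla2g1b had 0 reads in the knockdown. Only the control libraries could carry such genes past the filter, so the counts of this list depend on it. The part of pancreatic tissue in the fall of aqp12 was not tested.

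**Figure D3:**
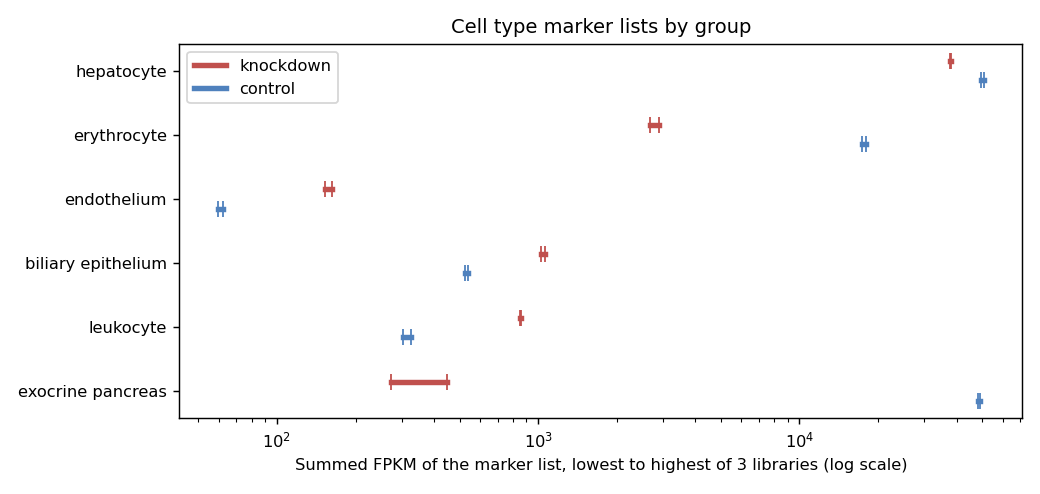
Summed FPKM of 6 cell type marker lists on a log axis, each bar running from the lowest to the highest of the 3 libraries of a group, knockdown above control; the exocrine pancreas list is shown without cpb2 and the ppdpf genes. Hepatocyte, erythrocyte and pancreas sums were lower in the knockdown, and endothelial, biliary and leukocyte sums were higher.

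The remaining water-only genes were at or near 0. Aquaporin-8 is found at the bile canaliculus of mammalian hepatocytes. Of its neighbouring copies on LG8, 7177 bases apart, LOC100704579 had 10, 18 and 10 reads in knockdown libraries 1, 2 and 3, against 13, 5 and 7 reads in control libraries 1, 2 and 3. These groups overlapped, and the fit without a filter gave a log2 fold change of 0.67 (SE 0.73, edgeR adjusted p = 0.461). The other copy, aqp8a.2 (LOC100704311), had 0 reads. So did LOC102077241 on LG20, which is named after an insect aquaporin. The lens aquaporins mipa and mipb, whose product names do not begin with aquaporin, had 12 and 8 reads in the knockdown and 9 and 5 reads in the control libraries.

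Ordered by level, the knockdown livers had aqp7 first at 36.5 ± 2.78 FPKM, followed by LOC100692669 at 9.43 ± 1.13, aqp12 at 8.14 ± 1.9 and aqp10a at 7.24 ± 1.06 FPKM (SD, n = 3). Neighbours among these last 3 did not differ beyond the range of their libraries, while aqp7 stood clear of them. The control livers had aqp10a first at 86.8 ± 1.2 FPKM, then LOC100692669 at 40.5 ± 3.40, aqp7 at 25.5 ± 1.18, aqp12 at 14.9 ± 1.89, LOC100697186 at 12.1 ± 0.893 and LOC100708036 at 8.40 ± 0.714 FPKM, with no overlap between neighbours.

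Summed over all 18 genes, aquaporin transcripts stood at 67.4 ± 1.80 FPKM in knockdown livers, against 189 ± 3.04 FPKM in control livers, 2.80-fold lower in the knockdown. The glycerol-conducting sum was 43.9 ± 2.62 FPKM in knockdown livers, against 112 ± 2.13 FPKM in control livers. The water-only sum was 23.6 ± 1.45 FPKM in knockdown livers, against 76.8 ± 1.55 FPKM in control livers. Both classes were thus lower in sum. The glycerol-conducting share of all aquaporin FPKM was 65.0% ± 2.59 in knockdown and 59.4% ± 0.533 in control livers, a smaller difference than that within the class. Within it, aqp7 held 54.0% ± 2.69 of all aquaporin FPKM in the knockdown and 13.5% ± 0.524 in the control livers, and aqp10a 10.7% ± 1.71 in the knockdown and 45.9% ± 0.102 in the control livers. These sums are descriptions and were not tested.

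**Figure D4:**
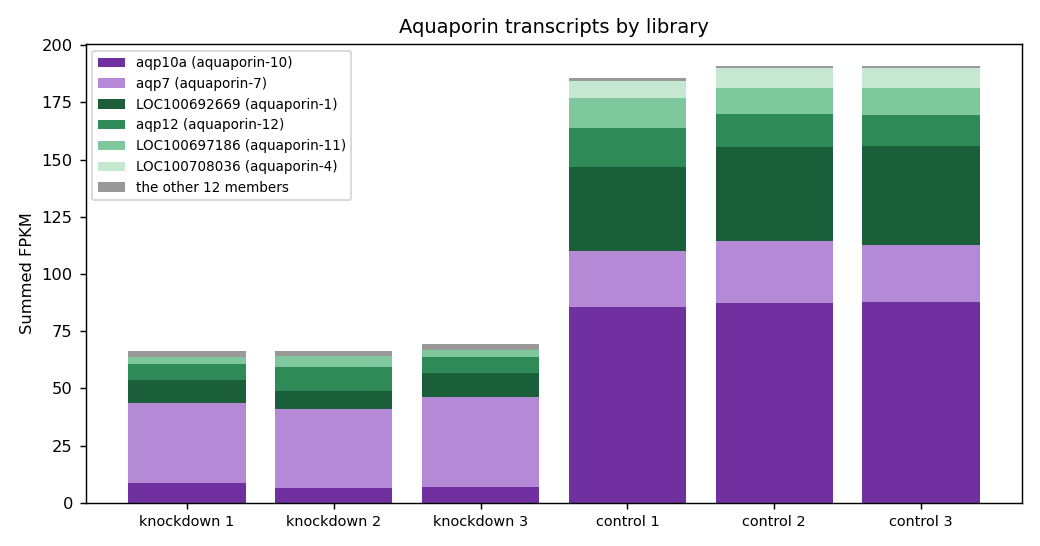
Summed FPKM of the 18 aquaporin genes in each library, with 1 colour per gene (purple shades glycerol-conducting, green shades water-only, grey the 12 genes below the filter). The 3 knockdown bars reach 66.3 to 69.5 FPKM and the 3 control bars 186 to 191 FPKM; the large aqp10a block of the controls is reduced to a thin base in the knockdown.

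The enzymes that release, use or make glycerol moved in both directions. On a list of glycerol handling 22 genes were tested, of which 12 were higher and 8 lower (median log2 fold change 0.23, against -0.01 over all genes tested), beside 78.2% called among all genes. The balance turned without a filter, where 10 of 29 genes were higher and 12 lower, beside 52.4% called among all genes of that fit. That fit also gave lower log2 fold changes to genes past the filter, such as 0.42 in place of 0.51 for aqp7. Its median over all genes was 0.05. The number higher thus fell although no gene left the list. In the main test the 4 largest changes on the list were all rises, of genes that act in the breakdown of triglyceride, which frees glycerol. The log2 fold change was 3.98 (SE 0.14) for the adipose triglyceride lipase gene pnpla2 and 3.82 (SE 0.10) for the hormone-sensitive lipase gene lipea. It was 3.73 (SE 0.45) for LOC100697369, a further gene named for the same lipase as pnpla2, and 2.97 (SE 0.12) for abhd5b, whose mammalian relative activates that lipase. Both genes of that lipase passed the filter through the knockdown libraries alone. Pnpla2 stood at 13.4 FPKM in knockdown and 0.845 FPKM in control livers. LOC100697369, at the edge of the filter, stood at 1.87 FPKM in knockdown and 0.137 FPKM in control livers. Among the most abundant of the list, g0s2, an inhibitor of that lipase, stood at 682 ± 1.28 FPKM in knockdown livers, against 567 ± 11.7 FPKM in control livers (log2 fold change 0.26, SE 0.04).

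Among genes that act on glycerol or its phosphate, some fell and the main kinase did not pass the test. Glycerol kinase phosphorylates glycerol once it has entered the cell. Its main copy, LOC100710600, stood at 39.0 ± 0.573 FPKM in knockdown livers, against 37.2 ± 1.28 FPKM in control livers (log2 fold change 0.06, SE 0.06, edgeR adjusted p = 0.378), and a minor copy, LOC100693874, fell by 0.84 on the log2 scale. The cytosolic glycerol-3-phosphate dehydrogenase LOC100703678, which links glycerol phosphate to glycolysis, fell to 41.0 ± 0.864 FPKM in the knockdown, against 226 ± 7.14 FPKM in the control livers (log2 fold change -2.47, SE 0.04). The acyltransferase gpam, which starts triglyceride synthesis from glycerol phosphate, fell by 1.54 on the log2 scale. The genes named in this paragraph other than LOC100703678 were chosen after their values were seen. Not all of the 12 higher genes of the list are named, so no direction of glycerol use as a whole is shown.

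**Figure D5:**
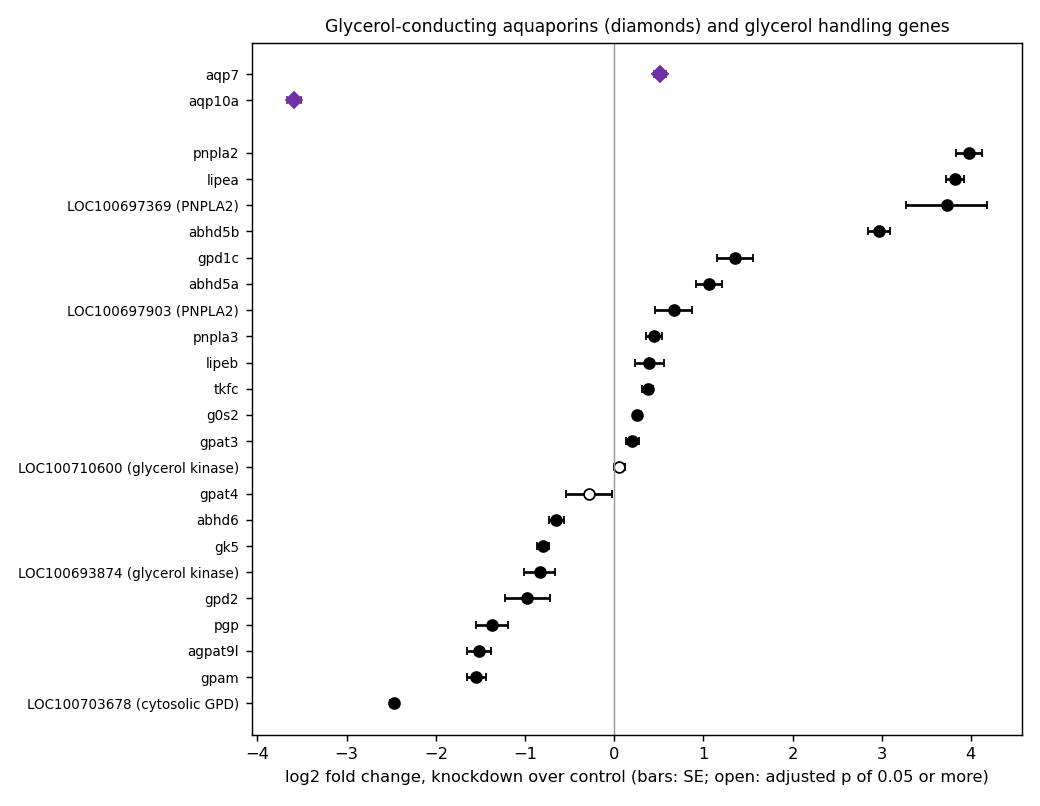
Log2 fold change (knockdown over control) with its SE for aqp7 and aqp10a (purple diamonds) and, below them, the 22 tested genes of glycerol handling in order of their change; filled points passed an edgeR adjusted p of 0.05. Aqp10a lies further left than any of the 22 genes, and aqp7 lies among those with small rises.

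Water follows solutes, and genes of cell volume and osmolyte transport were looked at beside the channels. On that list 33 genes were tested, of which 13 were higher and 14 lower (median log2 fold change 0.24), beside 78.2% called among all genes. The sign of that median depends on the filter, since it was -0.88 over the 14 genes with a mean of at least 5 FPKM, and it was 0.16 without control library 2. The most abundant and most changed was the GABA transporter 2 gene slc6a13, whose mammalian relative also carries taurine in liver. It fell to 6.66 ± 1.32 FPKM in the knockdown, against 162 ± 1.70 FPKM in the control livers (log2 fold change -4.61, SE 0.08). A taurine transporter gene, LOC100694392, rose (2.41, SE 0.12), while the potassium-chloride cotransporter gene slc12a5b (-3.18, SE 0.09), the volume-regulated anion channel subunit lrrc8da (lrrc8d in the file, -2.12, SE 0.11) and an aldose reductase, LOC100696953 (-0.77, SE 0.06), fell.

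The file places 10 of the 18 aquaporin genes in bile secretion, the flow that water channels of hepatocytes and bile ducts serve. Of the 10, only LOC100692669 and LOC100708036 passed the filter, and neither aqp7 nor aqp10a is among the 10. On a list of bile transport, which is not limited to the canaliculus, 25 genes were tested. Of these 9 rose and 13 fell (median log2 fold change -0.34), beside 78.2% called among all genes. The median was -0.19 without control library 2 and -0.20 without knockdown library 3. The sterol exporter genes abcg5 (log2 fold change -4.11, SE 0.14) and abcg8 (-2.84, SE 0.14) fell, and so did slc51a, which encodes the alpha subunit of the organic solute transporter of bile acids, to 40.0 ± 3.03 FPKM in the knockdown, against 99.6 ± 1.82 FPKM in the control livers. A second gene for that subunit, LOC100690465 (2.33, SE 0.11), a canalicular organic anion transporter, LOC100703684 (2.61, SE 0.09), and ezra, which encodes the membrane linker ezrin (0.92, SE 0.06), rose. Of 12 tested biliary epithelium markers 11 were higher and 0 lower, beside 39.1% higher and 39.1% lower among all genes tested. Some of these markers passed the filter through the knockdown libraries, where they were higher, so the counts depend on it. Examples are prom1a (mean 1.31 FPKM over the 6 libraries, log2 fold change 1.58) and anxa2a (mean 1.71 FPKM, 1.67). The summed levels of the list were 1029 to 1063 FPKM in knockdown and 523 to 541 FPKM in control libraries. The keratin gene krt18a.1, which is on the list, had a mean of 269 FPKM over the 6 libraries and rose by 0.51 (SE 0.04) on the log2 scale. The biliary markers cldn15la, spp1, muc1 and vtcn1 had no read. The part of bile duct cells in the changes of bile transport genes was not tested.

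Among other cell types in which mammals make aquaporins, all 16 tested leukocyte markers were higher, beside 39.1% higher and 39.1% lower among all genes tested. This count too depends on the filter, which spi1a (mean 3.97 FPKM over the 6 libraries, log2 fold change 3.47) passed through the knockdown libraries. The summed levels of the list were 850 to 860 FPKM in knockdown and 303 to 325 FPKM in control libraries. Aquaporin-7 is abundant in fat cells in mammals, and of 10 tested adipocyte markers 4 were higher and 5 lower, beside the same shares of all genes. The summed levels of the list were 435 to 449 FPKM in knockdown and 327 to 341 FPKM in control libraries. The median log2 fold change of the tested markers was -0.21. The gene cfd, 1 of the 4 higher ones, had a mean of 62.4 FPKM over the 6 libraries. It rose by 1.95 (SE 0.07) on the log2 scale, against the direction of that median. The leptin gene lepb had no read, and the part of fat cells in the aqp7 result was not tested. Of 8 intestine markers 2 passed the filter, with a summed level over the list of 8.54 to 10.4 FPKM in knockdown and 5.99 to 6.85 FPKM in control libraries, and fabp2 and mep1bb had no read. Of 15 kidney tubule markers 1 passed, with a summed level of 3.46 to 4.18 FPKM in knockdown and 4.90 to 5.10 FPKM in control libraries, and pax8, pax2b and slc22a6l were among those with no read. Of 23 hepatocyte markers 5 were higher and 15 lower, beside the same shares of all genes. The summed levels of the list were 37780 to 38138 FPKM in knockdown and 49571 to 50898 FPKM in control libraries.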

How the data were processed

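Per the submitters' processing notes, reads were trimmed with cutadapt 1.9 and aligned with HISAT. For the counting program, its strand setting and the build, the labels name nothing (not given in the sources used here). Per the file headers, the authors deposited read counts and FPKM values for each gene and library. The deposited FPKM equalled count over gene length and library total in 100% of values (relative tolerance 1e-05). Aquaporin genes were found by product name. Symbols and linkage groups come from an NCBI gene table (assembly O_niloticus_UMD_NMBU), where 29526 of the 29528 genes were found and 29523 had the same start and end.

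Genes with a mean of at least 1 FPKM (11431, holding 99.0% of reads) were tested from their deposited counts in R 4.3.3 by the quasi-likelihood test of edgeR 4.0.16, with TMM scaling and group as the only term. P-values were adjusted over all of them after Benjamini and Hochberg. A gene that is high in a single group can pass this filter through that group alone, so the counts on the marker lists depend on it. The SE is the log2 fold change divided by the square root of F. The code was tested on simulated data. Intervals of read ratios are exact binomial (Clopper-Pearson, 95%). Replicates of a group differed by more than counting noise (mean chi-square per gene 3.14 to 4.50). Alternatives used limma 3.58.1 and DESeq2 1.42.0. Every aquaporin is named. Of the partner lists, the 4 largest changes past the threshold and the 2 most abundant genes are named, except where marked, and marker examples were chosen after their values were seen. The members and lists were chosen with earlier results of these data known. The pairs of copies compared (at least 10 reads in each copy), the summed reads of same-numbered copies and the values of genes below the filter were added after seeing the data.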

Additional observations from a re-analysis of the deposited data

How the results depend on the processing

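All 6 tested aquaporin genes kept their direction and stayed past an adjusted p of 0.05 under every alternative in which they were tested (LOC100708036 was not tested at a minimum mean of 5 FPKM). These covered other scalings (size factors, library totals, and TMM without pancreas genes), DESeq2, limma, 3 other filters and each library left out. Over them the log2 fold change ranged from 0.42 to 0.58 for aqp7, -3.69 to -3.42 for aqp10a, -2.20 to -1.99 for LOC100692669, -2.02 to -1.55 for LOC100697186 and -1.07 to -0.76 for aqp12. That of LOC100708036, with 1 read in the knockdown, ranged from -11.07 (without knockdown library 1, which held that read) to -3.21 (limma with 1 FPKM added). The number of aquaporin genes that rose was 2 with no filter and with edgeR's own filter, and 1 to 2 with a library left out. LOC100692125 is the second gene, since it passed the filter without any 1 of the control libraries. A minimum mean of 5 FPKM left fewer genes tested, with 2341 higher and 2321 lower among all genes. It left 7 glycerol handling genes higher, 5 cell volume genes higher and 8 lower, and 5 bile transport genes higher. In reads, the glycerol-conducting share of the aquaporins was 76.5% in knockdown and 67.7% in control livers. With 1 FPKM added, the difference between the groups in the log2 ratio of LOC100692669 over LOC100692125 was -3.15. Same-numbered libraries of the groups showed no shared deviation (correlation of deviations 0.001 to 0.007), and the labels state no pairing. With the replicate number as a block 4409 genes were higher and 4447 lower, 1 and 5 of them aquaporins. Depth limits the genes with few reads: that of aqp9b, with 16 reads in the knockdown and 23 in the controls, could not be told from no change.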

Other observations

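The genes whose profile over the 6 libraries lay closest to that of aqp10a, by the root mean square difference of centred log2(FPKM + 1) values, were the tryptophan 2,3-dioxygenase gene tdo2 (0.07), a peroxisomal polyamine oxidase, LOC102080354 (0.09), and the inhibin beta A gene LOC100704395 (0.10). The first stood at 12.6 ± 1.36 FPKM in knockdown and 143 ± 5.17 FPKM in control livers (SD, n = 3 each). For LOC100692669 they were LOC100692578, named for a subunit of the mitochondrial import translocase (0.05), pdss1, which makes the tail of coenzyme Q (0.06), and rbm34, an RNA-binding protein gene (0.06). The added 1 FPKM understates the change of low genes, so a close profile does not mean an equal change. The fitted log2 fold changes were -3.51 for tdo2, -4.66 for LOC102080354 and -7.34 for LOC100704395, against -3.59 for aqp10a. They were -3.25 for LOC100692578, -2.63 for pdss1 and -2.71 for rbm34, against -2.11 for LOC100692669. In knockdown livers LOC102080354, LOC100704395 and LOC100692578 were under 1 FPKM, and they passed the filter through the controls alone.

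The genes next to the tested aquaporin genes are given as a description. Within 1484 bases on one side of aqp10a and 1444 on the other lie atp8b2 and LOC100702824, both below the filter. Atp8b2 had 49 reads in knockdown and 61 in control libraries, and LOC100702824 had 29 in knockdown and 18 in control libraries. Beside LOC100708036, kctd1 had 7 reads in knockdown and 27 in control libraries, and cdh2 was higher (11.5 ± 0.722 FPKM in knockdown and 7.37 ± 0.455 FPKM in control livers). The ribonuclease P gene rpp21 ends 11 bases from the low-coordinate end of aqp12 and lies on the opposite strand. It was lower (log2 fold change -0.73, SE 0.29, edgeR adjusted p = 0.0273), and so was LOC100696919, 4862 bases before LOC100697186 (-0.90, SE 0.16, edgeR adjusted p = 1.59e-05). The genes on the other sides of these 2 aquaporins were not called. Beside aqp12, slc35d1a was below the filter, with 61 reads in knockdown and 80 in control libraries, and its groups overlapped. Beside LOC100697186, at 1977 bases, rsf1b.1 did not pass the test (0.32, SE 0.17, edgeR adjusted p = 0.0987).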
